A study of Glycine max with 3 samples.

Results

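The miR172 family was followed in leaves of Taiwan 75, a cultivar of vegetable soybean (Glycine max) that is harvested while its seeds are still green. Its members were taken by name. They were every miR172 or MIR172 entry in the lines used of the known miRNA profile, with 1 kept per distinct mature sequence. Every such entry of the degradome listing was taken too. The members came to 7 of 381 distinct sequences, and to 120 of 898 pairs of a small RNA and a transcript. These pairs fall on 27 of 275 gene loci. The chilled plants were moved to 4 °C for 24 h at the stage of 1 true leaf, and the control plants stayed at 25 °C in the light and 17 °C in the dark, with a photoperiod of 12 h in both. In each condition leaves of 3 replicates were pooled into 1 small RNA library, so the ratios below compare 2 libraries and have no replicate check. A further library, of chilled and control leaves mixed, was a degradome library, which reads the ends that a cut leaves on messenger RNAs. Its label gives 10 days after pollination as the stage, which differs from the other libraries. In these whole-leaf pools, fewer cells that make a miRNA and less of it per cell cannot be told apart.

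miR172 is one of the conserved plant miRNAs. It represses AP2-type transcription factors, a group that in Arabidopsis thaliana includes the floral organ gene AP2 and the floral repressors TOE1 and TOE2, by cutting their messenger RNAs and by blocking their translation. In Arabidopsis it acts after miR156 in the passage from juvenile to adult leaves and in flowering, and in soybean it is also known from root nodules. The mature miRNA lies on the 3′ arm (3p) of its hairpin, and the 5′ arm (5p) gives the partner strand of the duplex.

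The 3p sequences are shown first because all AP2-type loci of the degradome listing were paired with them. Capitals mark the seed, bases 2 to 8 from the 5′ end, and letters are given as DNA, as in the deposited profile.
miR172a: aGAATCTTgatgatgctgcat
miR172c: aGAATCTTgatgatgctgcan
miR172k: tGAATCTTgatgatgctgcat
miR172i-3p: gAATCTTGatgatgctgcat
miR172a, miR172c and miR172k share their seed. Counted from 1 at the 5′ end of miR172a, miR172k differs from it by A1T and miR172c by T21N, where N is an undetermined base. miR172i-3p is miR172a without its first base. miR172k appears in the degradome listing, and no entry of it was among the profile entries used here. Because these letters overlap almost fully, reads may be shared between the 3p entries.

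The 5p sequences are shown because they tell apart hairpins that give the same miR172a.
miR172h-5p: gCAGCAGCatcaagattcaca
miR172b-5p: gTAGCATCatcaagattcaca
MIR172e-p5: gGAGCATCatcaagattcaca
MIR172l-p5: gCAGCCGCatcaagattcac
MIR172k-p5: gTAGCACCatcaagattcaca
Each of the 5p sequences has a seed of its own, while those of 21 nt share their last 14 bases. Against miR172b-5p, miR172h-5p differs by T2C and T7G, MIR172e-p5 by T2G and MIR172k-p5 by T7C, counted from 1 at the 5′ end. The sequence listed here as MIR172e-p5 also carries the names MIR172c-p5 and MIR172d-p5. MIR172k-p5 appears in the degradome listing and was not among the profile entries used here.

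The profile listed 14 entries for these sequences on 8 hairpins of 90 to 178 nt, with a GC content of 40.5% to 51.6%. Coordinates below count from 1 in a genome build that the sources used here do not name. miR172a was listed on 4 hairpins. On chromosome 10 and on chromosome 20 its partner arm was miR172h-5p, and on chromosomes 11 and 12 it was miR172b-5p. One hairpin of each kind is shown, with both arms in capitals as deposited.
hairpin of miR172a and miR172h-5p, chr10:44054389-44054479, plus strand: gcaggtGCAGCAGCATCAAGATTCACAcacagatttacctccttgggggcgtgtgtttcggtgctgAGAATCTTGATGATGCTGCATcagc
hairpin of miR172a and miR172b-5p, chr11:26905395-26905527, plus strand: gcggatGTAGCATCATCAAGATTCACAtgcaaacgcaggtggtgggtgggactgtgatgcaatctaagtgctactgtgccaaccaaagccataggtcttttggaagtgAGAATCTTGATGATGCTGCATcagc
In the fold the authors gave, 19 of the 21 bases of either arm were paired in the chromosome 10 hairpin and 20 in the chromosome 11 hairpin. Of the 14 entries, 12 had a mature sequence that occurs exactly in its hairpin. The exceptions were miR172c, which differs from the 3p arm of its hairpin on chromosome 11 (31482550 to 31482702, minus strand) by A1G and N21G, and MIR172l-p5, which differs from its arm on chromosome 13 (43075243 to 43075420, plus strand) by C6G, with the mature base given first. The locus behind the miR172c reads was not settled.

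Reads over all sequences summed to 5347700 in the chilled and 3856902 in the control library, and miR3522 alone took 91.2% and 88.1% of them. Values were scaled between the libraries by TMM, which sets the bulk of sequences equal. Normalised reads below are on that scale, each library being divided by its own factor. A log2 ratio sets the chilled over the control value after a pseudocount of 1 was added to either. A sequence was called where its ratio was at least 2-fold and 1 library had at least 10 normalised reads. Intervals are at 95% and cover counting error only, since each condition had 1 pooled library. They take rounded reads as counts and hold no pseudocount, whereas log2 ratios and the fold values drawn from them do. Ratio and interval therefore differ in basis, most where reads are few. Reads were not counted as single molecules and all 14 miR172 entries hold fractions, so the counting error itself may differ.

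miR172a carried nearly all reads of the family and was moderately lower in the chilled library, while both abundant 5p sequences were more than 2-fold lower there. Each of the 4 entries of miR172a listed 3024 reads in the chilled and 3572 reads in the control library, or 2777 and 3890 normalised reads. Whether an entry holds all reads of its sequence or a share of them is not given. Levels, shares and ranks are therefore those of 1 entry per sequence, unless entries are said to be summed. Its log2 ratio was -0.49 (-0.56 to -0.42), which did not reach 2-fold. It made up 96.4% of the family's reads in the chilled library (Wilson interval 95.7% to 97.0%) and 91.8% in the control library (90.9% to 92.6%). Among all 381 sequences it ranked 26th in the chilled and 23rd in the control library.

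miR172h-5p, the partner strand from the chromosome 10 and 20 hairpins, had 67 chilled and 155.5 control reads. Its log2 ratio was -1.45 (-1.90 to -1.04), so it was 2.73-fold lower in the chilled library. With TMM its interval lay wholly beyond 2-fold. The interval reached -0.84 with table totals without miR3522 and -0.80 with no scaling, and so did not lie wholly beyond 2-fold there. miR172b-5p, the partner strand from the chromosome 11 and 12 hairpins, had 14 chilled and 80.4 control reads, 6.39-fold lower, with a log2 ratio of -2.68 (-3.70 to -1.93). Only 3 of the 213 sequences above the minimum had a lower ratio than miR172b-5p.

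The other 3p sequences were scarce. miR172c, with its undetermined last base, had 17.5 chilled and 62.3 control reads. It was 4.04-fold lower in the chilled library, at a log2 ratio of -2.01 (-2.88 to -1.25), also wholly beyond 2-fold. miR172i-3p had 14.3 chilled and 20.4 control reads. The interval of its log2 ratio of -0.72 reached from -1.86 to 0.30 and so included 0. It was built on these fractional values after rounding, and its width may not be the counting error of the reads behind them. MIR172e-p5, with 0.333 chilled and 1 control reads, and MIR172l-p5, with 0 chilled and 0.333 control reads, stayed below the 3 reads that a count of 0 allows in either library, so no ratio is given for them.

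**Figure D1:**
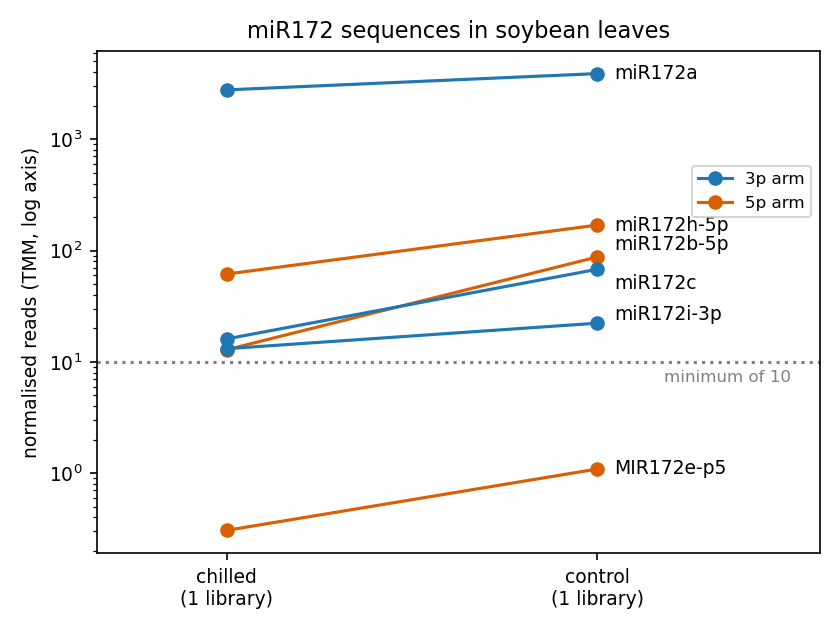
Normalised reads (TMM, log axis) of 6 miR172 sequences in the chilled and the control library, 1 point per library, 3p sequences in blue and 5p sequences in orange; the dotted line marks the minimum of 10. Each of the 5 lines above the minimum ends lower in the chilled library. Normalised reads are 2777 against 3890 for miR172a and 12.9 against 87.6 for miR172b-5p. The interval of the ratio of miR172i-3p included 0. MIR172e-p5 lies below the minimum, and no ratio is given for it. MIR172l-p5, with 0 chilled reads, cannot be drawn on this axis.

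Of the 5 miR172 sequences above the minimum, 3 were called lower and 0 higher. Over the whole profile 16.4% of 213 sequences were called lower and 14.1% higher, 30.5% in all. This split depended on the scaling: 35 were called lower and 30 higher with TMM, 52 and 19 with table totals, and 25 and 47 with no scaling. The median of all 213 log2 ratios stood between -0.17 with table totals and 0.31 with no scaling. A scaling moves all ratios by about the same amount, so the difference of miR172a from that median, -0.55, does not depend on it. The ratio lay below 0 for 5 of 5 miR172 sequences and for 104 of all 213, and the median log2 ratio was -1.45 over the 5 and 0.06 over the 213. The 3 calls, of miR172h-5p, miR172b-5p and miR172c, were made under all 5 scalings run. The number of reads behind them is small, and with a minimum of 100 normalised reads 2 sequences remained, of which 1, miR172h-5p, was called.

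**Figure D2:**
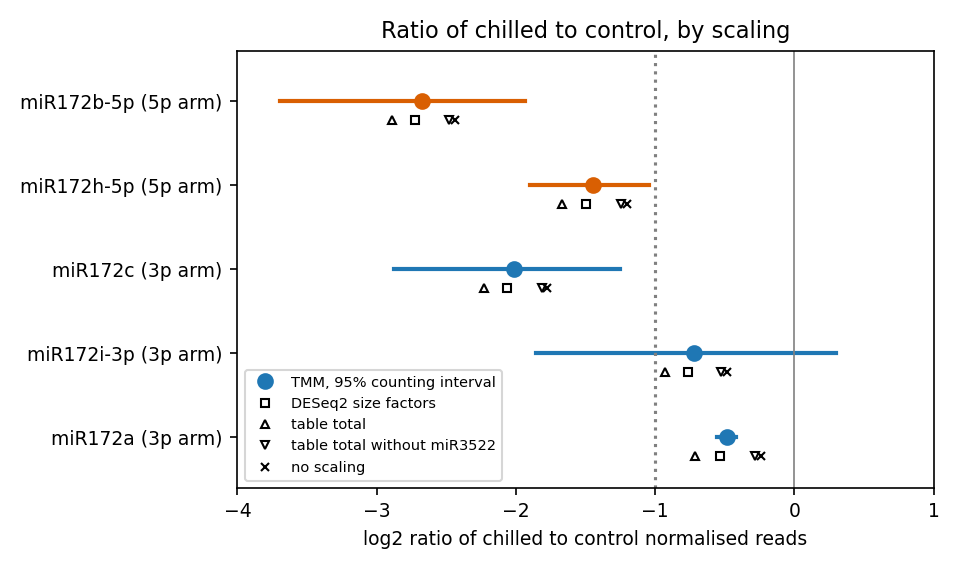
Log2 ratio of chilled to control normalised reads for the 5 sequences above the minimum; large points are the TMM values with their 95% counting intervals, and small symbols below them the values under the other scalings. All values lie left of 0, and those of miR172b-5p, miR172h-5p and miR172c lie left of the dotted line that marks 2-fold lower, while miR172a runs from -0.71 to -0.24 over the scalings.

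The arms were then compared as sums. The 5p arm had 81.3 chilled and 237 control reads over 4 sequences, with a log2 ratio of -1.78 (-2.18 to -1.43), 3.43-fold lower. The 3p arm had 3056 chilled and 3655 control reads over 3 sequences, with a log2 ratio of -0.50 (-0.57 to -0.43), 1.42-fold lower. The family sum, 3138 chilled and 3892 control reads, had a log2 ratio of -0.56 (-0.63 to -0.49), and so followed miR172a.

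Shares within a library do not depend on the scaling between libraries. The 5p arm took 2.59% of the miR172 reads in the chilled library (Wilson interval 2.08% to 3.20%) and 6.10% in the control library (5.38% to 6.88%). With reads summed over all entries of a sequence, which weights miR172a by its 4 hairpins, the 5p share was 1.33% in the chilled and 3.20% in the control library. The 5p share was thus smaller in the chilled library in both ways of counting, and the intervals of the libraries did not overlap.

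The 5p strands also divide the miR172a hairpins. Of the reads of miR172h-5p and miR172b-5p together, miR172h-5p took 82.7% in the chilled library (73.1% to 89.4%) and 65.9% in the control library (59.8% to 71.8%). The intervals did not overlap, on 81 chilled and 236 control reads, and no test over replicates was possible. The reads of miR172a itself cannot be divided in this way, because its 4 hairpins give the same letters.

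**Figure D3:**
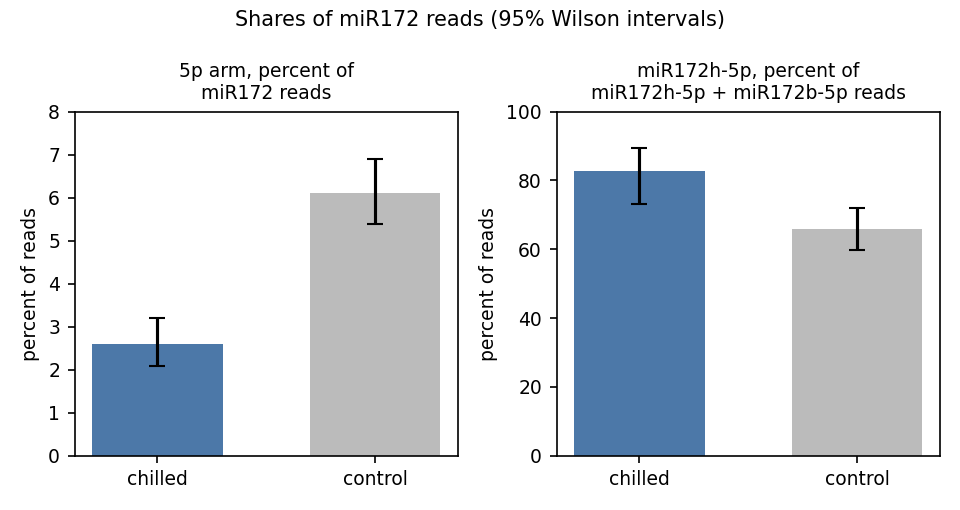
Left, the 5p arm as a percent of all miR172 reads; right, miR172h-5p as a percent of the reads of miR172h-5p and miR172b-5p; 1 bar per library with its 95% Wilson interval, which covers counting error only. The 5p share is 2.59% in the chilled and 6.10% in the control library, and miR172h-5p takes 82.7% and 65.9% of the divided reads.

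As a family miR172 was among the more abundant ones, though a small part of all reads. It ranked 18th of 136 families by mean normalised reads, 20th in the chilled and 17th in the control library. It made up 0.0587% of all reads in the chilled and 0.101% in the control library, and 0.664% and 0.846% of the reads left without miR3522. The families next above it in mean were miR5770, miR1310 and miR396, and those next below were miR397, miR4416 and miR168. In the chilled library miR172 had 2881 normalised reads, against 4521 for miR5770 and 3044 for miR397. In the control library it had 4239, against 3554 for miR5770 and 3926 for miR397. Over this pair of libraries miR172 thus lay below both neighbours in the chilled library and above both in the control library.

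miR156 precedes miR172 in the passage to adult leaves and represses SPL transcription factors. Its family sum stood in much the same proportion to that of miR172 in both libraries, with overlapping intervals. The ratio of miR156 to miR172 reads was 4.78 in the chilled library (4.60 to 4.97) and 4.83 in the control library (4.67 to 5.01). This ratio is that of family sums, opposite arms included, and single members of miR156 lay on both sides of 0. The log2 ratio was -1.15 for the 5p arm of miR156 and 0.15 for its 3p arm. The 3p arm of miR172 stood at -0.50, so single arms did not keep the proportion of the sums. In 8 families that act on growth and phase-change transcription factors, miR156 included, 59 sequences were above the minimum. The others were miR159, miR164, miR166, miR169, miR171, miR319 and miR396. Calls in miR172, 0 higher and 3 lower of 5 at a median log2 ratio of -1.45, stood beside 14 higher and 9 lower in those families, with a median of 0.35. The families were not alike. As in miR172, 0 sequences were called higher in miR159 (2 lower of 4, median -1.43), miR396 (2 lower of 6, median -0.68) and miR319 (1 lower of 1, at -2.07). A family with lower calls alone was thus not particular to miR172.

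The degradome listing was used to ask which transcripts miR172 may cut. Because the library mixed both conditions, it holds no difference between chilled and control leaves. The authors' deposited table gives for each pair an alignment score (a penalty, 0 being a perfect match), the abundance of degradome reads at that position, called TPB and not spelled out, a category and a p-value. In such listings category 0 usually means that the cut site is the single highest of its transcript and category 4 that it holds a single read. Whether these meanings hold for this listing was not checked. The smallest abundance in the listing was 8.14 TPB. Among miR172 pairs, category 4 sites held up to 40.7 TPB and category 3 sites 16.3 TPB, so the category did not follow TPB alone. miR172 had the most gene loci of the 54 families listed, 27, ranked 4th by loci in category 0 and 8th by its highest abundance. As a share, 9 of its 27 loci were in category 0, or 33.3%. For the other families it was 25.3% of 257 pairs of a family and a locus.

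A locus was counted as AP2-type where its annotation names AP2 or a TOE gene. By that rule 12 of the 27 loci were AP2-type, with 34 transcripts and 79 pairs, and 15 were not, with 25 transcripts and 41 pairs. At its best pair, the one with the lowest category and then the lowest p-value, an AP2-type locus fell in category 0 in 9 of 12 cases, in category 2 in 1 and in category 4 in 2. Of the other 15 loci, 0 fell in category 0, 9 in category 2 and 6 in category 4. Over all families 26.1% of 284 pairs of a family and a locus had category 0, and 20.4% had an authors' p-value under 0.05. The lowest authors' p-value of a locus was under 0.05 for 5 of the 12 AP2-type loci and for 0 of the other 15. Only 10 of the 79 AP2-type pairs were under 0.05. None of the 5 loci was under 0.05 with both miR172a and miR172k, although both were listed at the same cut.

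The classes also differed in abundance and alignment, with overlap. At the best pair, AP2-type loci ran from 20.4 to 2182 TPB with a median of 1052 TPB, and the other loci from 8.14 to 651 TPB with a median of 81.4 TPB. Taking instead the pair with the highest abundance at each locus, an alternative chosen after seeing the data, the medians were 1052 TPB for AP2-type and 183 TPB for other loci. Of the AP2-type loci, 8 lay above the highest of the other loci. The median alignment score was 2.5 at AP2-type loci and 3.5 at the others, with ranges of 1.5 to 4 and 2.5 to 4. Class and arm cannot be separated well here, since 11 of the 15 other loci were paired with the 5p arm alone. The 4 other loci of the 3p arm had best-pair scores of 2.5, 2.5, 3.5 and 4, at 20.4 to 217 TPB. No test was made, since loci share reads and sequence.

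**Figure D4:**
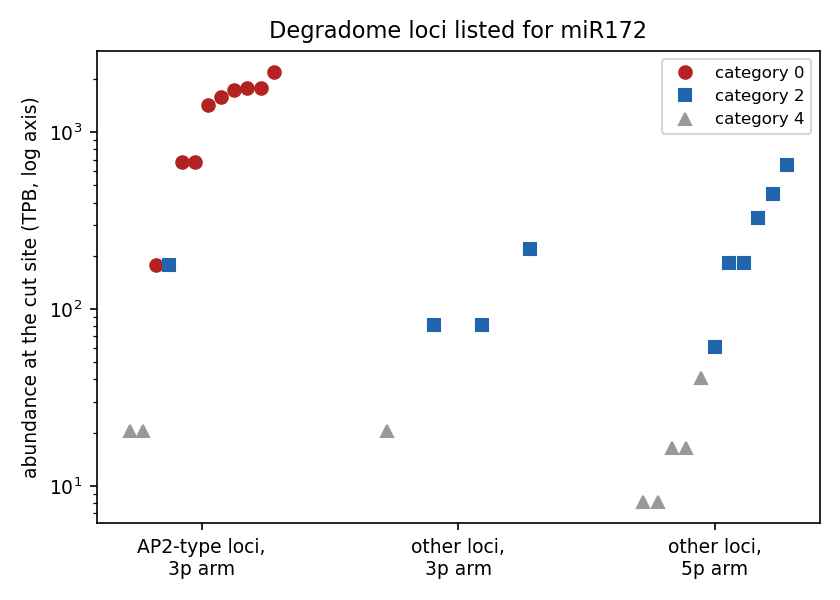
Abundance at the cut site (TPB, log axis) for the best pair of each of the 27 gene loci listed for miR172, by target class and arm, with the marker giving the authors' category. The 9 category 0 loci are all AP2-type loci of the 3p arm, from 176 to 2182 TPB, and the 11 loci of the 5p arm reach 651 TPB in category 2 or 4.

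The arms listed separate targets. The 3p sequences were paired with 16 loci, all 12 AP2-type loci and 4 others, and held all 54 category 0 pairs. The 5p sequences were paired with 11 loci, of which 0 were AP2-type, in 31 pairs with 0 in category 0. The lowest authors' p-value was 0.0167 for the 3p and 0.467 for the 5p sequences.

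Among AP2-type loci, 7 carried the TOE1 annotation, 4 the AP2 annotation and 1 both AP2 and TOE2 on different transcripts. The highest abundance was at the TOE1-type locus Glyma.15G044400, with 2182 TPB on both of its transcripts, 268 times the smallest value in the listing. Its cut lay at position 1825 of the first transcript, its alignment score was 2 for miR172a, and its authors' p was 0.0779.

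The TOE1-type locus Glyma.12G073300 had 1587 to 1734 TPB over its 4 transcripts, all in category 0 for miR172a. Glyma.U022100, also TOE1-type, had 1571 to 1734 TPB over 7 transcripts, all in category 0. Glyma.13G329700 had 1425 TPB on each of 4 transcripts, again in category 0. For these 3 loci the authors' p was 0.0779 with miR172a. A further 2 TOE1-type loci, Glyma.03G177500 and Glyma.19G178200, stood apart from them, at 20.4 TPB in category 4, with an authors' p of 0.779.

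Glyma.10G116600, annotated as AP2 on one transcript and TOE2 on the other, had 1771 TPB in category 0 at positions 1644 and 1614. With miR172k its alignment score was 1.5 and its authors' p 0.0167, and with miR172a these were 2 and 0.0779. Of the AP2-annotated loci, Glyma.05G091200 and Glyma.17G170300 each had 678 TPB in category 0 and an alignment score of 4. Their authors' p was 0.0338 with miR172a and 0.0779 with miR172k. Glyma.01G188400 had 176 TPB on each of 5 transcripts, 3 of them in category 0 and the others in category 2. On those 3 the authors' p was 0.0372 with miR172a and 0.0817 with miR172k. Glyma.11G053800 had 176 TPB in category 2, with an authors' p of 0.888.

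Abundances were not independent between loci. Of the 12 AP2-type loci, 10 formed 5 pairs that list at least 1 identical abundance. Among them were Glyma.05G091200 with Glyma.17G170300, Glyma.01G188400 with Glyma.11G053800, and Glyma.03G177500 with Glyma.19G178200. Glyma.12G073300 and Glyma.U022100 shared 1 value, 1734 TPB, and differed on their other transcripts. Reads from a stretch that such paralogs share cannot be assigned to either, so a cut in each member of a pair was not shown separately. The same holds for the small RNAs. miR172a and miR172k were both listed on 36 transcripts, and on all 36 with the same cut position and abundance. Their alignment scores differed on 23 of these transcripts, the lower one being that of miR172a on 19 and of miR172k on 4.

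miR172i-3p, which starts 1 base later, was listed 1 base to the 5′ side on each of the 13 transcripts that it shared with miR172a. On the 11 AP2-type transcripts among these, of Glyma.12G073300 and Glyma.U022100, the site of miR172i-3p held 16.3 to 24.4 TPB in category 2 or 3. The site of miR172a on the same transcripts held 64.3 to 103.5 times as much. Most degradome ends there thus lay at the position listed for miR172a and miR172k, although the alignment scores of miR172a and miR172i-3p were equal on all 13.

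The other loci of the 3p arm followed a different pattern at these neighbouring positions. The 2 WRKY51 loci, Glyma.05G184500 and Glyma.08G142400, which encode a WRKY transcription factor tied to defence in Arabidopsis, had 326 TPB at the site of miR172a and 81.4 TPB at that of miR172i-3p, a ratio of 4, all in category 2. At Glyma.12G135100, a SUI1 translation initiation factor, the site of miR172k held 27.1 TPB and that of miR172i-3p 217 TPB, a ratio of 0.125. Glyma.06G258200, an S-locus lectin protein kinase, had 20.4 TPB in category 4. These loci and those of the next paragraph are named as members of the listing, after their values were seen.

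The loci of the 5p arm were varied in annotation. Glyma.20G157300, a membrane steroid binding protein, had 651 TPB with miR172h-5p and MIR172l-p5, the highest outside the AP2-type loci. Glyma.11G101500, nucleolin like 2, a protein of ribosome assembly, had 448 TPB with miR172b-5p, and Glyma.10G217900, the sucrose transporter SUC2 that loads the phloem in Arabidopsis, 326 TPB with MIR172l-p5. The 2 loci of ATPC1, the gamma subunit of the chloroplast ATP synthase, had 183 TPB with miR172h-5p. For all of these, in category 2, the authors' p was 0.949 or above. The splicing factor locus Glyma.06G324000 had 61.1 TPB in category 2 with MIR172k-p5, with an authors' p of 0.726. The remaining 5 loci, of 2 cyclase family proteins, 2 ADP-ribosylation factors and 1 ClpS-type protein, were in category 4 at 8.14 to 40.7 TPB. MIR172l-p5, with 0 chilled and 0.333 control reads in the profile, had 2 of these 11 loci. None of the 27 loci was listed for a small RNA of another family.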

How the data were processed

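Small RNA was sequenced from 1 chilled and 1 control library of soybean leaves and a degradome from 1 mixed library, from about 1 μg of total RNA for small RNA libraries, per the labels' protocols. The deposited profile tables hold unscaled reads per miRNA, per the file headers. The authors' values are treated as estimated counts, per the file headers and because 339 of 587 entries hold fractions. GC percent, hairpin lengths and folds are the authors' deposited values. The deposited degradome table gives an alignment score, an abundance signal (TPB), a category and a p-value per pair, per the file headers. The sources used here name no trimming step, aligner, target caller or genome build.

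One entry was kept per distinct sequence, the one with the most reads, and counts were rounded for scaling and intervals. TMM factors came from edgeR 4.0.16 under R 4.3.3, and on the log2 scale the factor of the chilled library exceeded that of the control by 0.25. Alternatives were size factors of DESeq2 1.42.0, table totals with and without miR3522, and no scaling. Ratio intervals are exact conditional binomial intervals and share intervals Wilson intervals. With 1 library per condition no test between conditions was made. Sequences named were all members, and loci by their best pair. Members, lists and tests were chosen with earlier results of these data known. In the copy used here 6 lines of the known miRNA table were empty, 4 of them among the miR172 entries. These lines are not analysed here, so hairpins, entry counts and entry sums of miR172 are of the remaining lines. The same holds for its sequences, arm and family sums, shares and ranks, since the empty lines may have held further sequences. One AP2-type locus is counted and not reported by name here. None of the 27 locus identifiers matched the RefSeq gene table, so annotations are those of the degradome table.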

Additional observations from a re-analysis of the deposited data

How the results depend on the processing

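No ratio of miR172 changed sign under any alternative run, and the count of 3 miR172 sequences called lower was kept under each other scaling, with a pseudocount of 0.5, with entries summed and with no minimum. It was 1 with a minimum of 100 normalised reads, where 2 sequences were left, and 2 without miR172c, an alternative added after seeing the data. The size of the moderate ratios depended on scaling. The family sum stood at -0.78 with table totals, -0.35 with totals without miR3522 and -0.31 with no scaling, and the 3p sum at -0.73, -0.30 and -0.26 in the same order. Over the whole profile, 63 sequences were called lower and 63 higher with no minimum, and 14 lower and 7 higher with a minimum of 100. There were 19 called higher with table totals and 47 with no scaling. Lower calls there were 52 and 25, so the share of higher against lower calls depends on scaling.

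With entries summed, the 5p share was 1.33% in the chilled and 3.20% in the control library, and miR172 was 0.217% and 0.356% of the table's reads. Without miR3522 those of the table's reads were 0.664% and 0.846%. Counted per transcript there were 34 AP2-type and 25 other targets, 27 of the AP2-type ones in category 0. Counted per pair there were 79 and 41, with 54 in category 0. With categories 0 and 1 only, 9 AP2-type and 0 other loci were left, and with an authors' p under 0.05, 5 and 0. The median abundance of the other loci was 183 TPB, in place of 81.4 TPB, with the highest pair of each locus, which took miR172a in place of miR172i-3p at the WRKY51 loci. The cause of the remaining shifts was not tested. No paired analysis was possible because each condition had 1 library, and no library could be left out for the same reason. Depth limits the ratios of sequences under about 20 reads.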

Other observations

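The difference between arms was set beside that of other families, a comparison added after seeing the data. In 46 families both arms reached the minimum in at least 1 library. The scarcer arm had a lower log2 ratio than the more abundant arm in 27 of the 46, with a median difference of -0.30. In miR172 the difference was -1.27, the 10th lowest of the 46, so a scarcer arm with the lower ratio was not particular to miR172. Families at the other end included miR156, with a difference of 1.30, where the 3p arm, the scarcer one over both libraries together, made up 55.4% of reads in the chilled and 33.5% in the control library.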
